A study of Mus musculus with 26 samples.

Results

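The 10 genes described here encode transcriptional regulators of photoreceptor fate: Otx2, Crx, Rorb, Neurod1, Nrl, Nr2e3, Samd7, Esrrb, Rxrg and Thrb. They were chosen by name, with no measured value in the choice, and all 10 of 10 had a complete line of 26 values among the 25146 complete gene lines of the deposited table. The series holds 26 mouse 3′ RNA-seq libraries, each amplified from 1 ng of total RNA, in 13 sorted groups of 2 libraries. It follows BLIMP1, the zinc finger repressor encoded by Prdm1, in retina, intestine, B lineage and cultured germ cell precursors. The 5 retinal groups were sorted from C57BL/6 mice that are homozygous for EGFP inserted at the N terminus of BLIMP1, so every retinal group carried the tagged protein and none was untagged. The P0 group was gated on GFP alone. At P4 there were 2 gates, GFP+ CD73- and CD73+. The P6 and P10 groups were gated on CD73+ alone, without the reporter. CD73, the product of Nt5e, is a surface enzyme of young rods. Along the series age and gate therefore change together, and only the pair of P4 sorts shares an age.

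The intestinal groups came from the same knock-in mice as EpCAM+ epithelium at E16.5 (GFP+), P3 and P14 (both BLIMP1-negative by the protocol). Of the B-lineage groups, B cells were B220+ spleen cells of mice 8 to 10 weeks old. Blasts (GFP- CD138-), pre-plasmablasts (GFP+ CD138-) and plasmablasts (GFP+ CD138+) were grown from such cells for 3 days with LPS at 10 ng/mL and IL-4 at 2 ng/mL. The primordial germ cell-like cells (d2 PGCLC) were induced for 2 days from a C57BL/6+129 line carrying Blimp1-mVenus, stella-ECFP and Rosa26-rtTA, with BMP4, BMP8A, SCF, LIF and EGF, and sorted for the Blimp1 reporter (BV+). The labels do not say whether the replicates of a group came from separate animals or cultures, so each p-value reflects the spread of these libraries alone, and that spread may be technical.

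In the vertebrate retina, newly postmitotic precursors that express the homeobox factor OTX2 can become photoreceptors or bipolar cells, and BLIMP1 is transiently present in them, where it holds back the bipolar programme. OTX2 activates its relative CRX, which drives the genes of the outer segment and of phototransduction. Among these precursors RORB and NEUROD1 act early, the leucine zipper factor NRL directs cells to the rod fate and activates NR2E3, which silences cone genes in rods, while RXRG and THRB are nuclear receptors of cones. SAMD7 is a partner of Polycomb silencing in rods, and ESRRB is an orphan nuclear receptor of mature rods that is also a core factor of pluripotent stem cells.

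Sequence around the start sites is given for 4 members: Nrl, Nr2e3 and Samd7, whose levels moved together, and Crx, the factor whose family binds TAATCC. Each run is the RefSeq window of 300 bases on GRCm38.p6 (the build mm10), from 250 bases before to 50 bases after the start site, 5′ to 3′ on the gene's own strand. Capitals mark TAATCC on either strand, which reads GGATTA when it lies on the other strand. The Nrl window is chr14:55524203-55524502 (minus strand), Nr2e3 chr9:59950030-59950329 (minus), Samd7 chr3:30746043-30746342 (plus) and Crx chr7:15879906-15880205 (minus).
Nrl: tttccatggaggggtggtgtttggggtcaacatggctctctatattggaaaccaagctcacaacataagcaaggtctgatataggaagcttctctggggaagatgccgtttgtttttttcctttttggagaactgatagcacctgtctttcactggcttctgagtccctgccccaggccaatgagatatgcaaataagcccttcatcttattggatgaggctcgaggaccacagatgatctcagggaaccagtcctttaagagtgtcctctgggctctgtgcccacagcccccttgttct
Nr2e3: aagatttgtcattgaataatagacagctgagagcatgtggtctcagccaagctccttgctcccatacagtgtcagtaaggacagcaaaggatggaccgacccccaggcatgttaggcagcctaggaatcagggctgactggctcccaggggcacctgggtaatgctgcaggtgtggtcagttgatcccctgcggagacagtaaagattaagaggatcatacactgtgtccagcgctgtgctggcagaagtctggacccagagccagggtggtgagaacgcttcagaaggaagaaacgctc
Samd7: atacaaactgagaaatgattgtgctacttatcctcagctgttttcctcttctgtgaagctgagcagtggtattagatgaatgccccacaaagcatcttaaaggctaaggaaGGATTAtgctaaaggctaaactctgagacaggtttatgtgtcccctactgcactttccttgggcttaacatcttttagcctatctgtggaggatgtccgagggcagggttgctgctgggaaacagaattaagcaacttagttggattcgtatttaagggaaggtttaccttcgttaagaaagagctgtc
Crx: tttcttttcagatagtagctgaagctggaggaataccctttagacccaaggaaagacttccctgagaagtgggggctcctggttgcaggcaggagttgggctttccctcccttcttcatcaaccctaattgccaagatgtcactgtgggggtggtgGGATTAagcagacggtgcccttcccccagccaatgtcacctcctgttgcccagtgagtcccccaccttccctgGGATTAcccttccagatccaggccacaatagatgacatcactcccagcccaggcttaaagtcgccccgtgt

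The Crx window held GGATTA at 94 and at 21 bases before the start site (positions -94 and -21), and the Samd7 window held it at -139. The Nrl and Nr2e3 windows held neither orientation. Over all members, 4 of 10 had the letters in at least 1 of their windows (the others being the start at Otx2 promoter 3, at -211, and Thrb promoter 1, at -46), or 4 of 17 windows (23.5%), where 7.06% of 32851 mouse promoter windows of this length held them. TGCTGA, the core of the NRL response element, was in 4 of 17 member windows and 19.5% of all windows. The nuclear receptor letters AGGTCA were in 2 of 17 and in 16.3% of all. The E-box CAGCTG was in 4 of 17 and 16.3%. The letters GNGAAAG, part of the BLIMP1 motif, were in 6 of 17 member windows and 22.6% of all, with a match at -104 in Nrl and at -150 in Crx. All were searched on both strands, and the Rxrg matches to AGGTCA and CAGCTG overlap. A match is a description of letters, not evidence of binding.

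The retinal libraries held an estimated 2.58 to 5.60 M reads (M for the SI prefix mega), so that 1 read was worth 0.179 to 0.387 RPM, the depth-scaled unit of the deposited table. The gates were reflected in their own genes: Prdm1 stood at 481 to 502 RPM in the 4 reporter-gated libraries and at 80.4 to 288 RPM in the 6 gated on CD73. Nt5e was at 8.37 and 18.2 RPM at P0, 145 and 89.2 RPM in the CD73- sort at P4, and 323 and 225 RPM in the CD73+ sort. Nt5e transcript was thus present, though lower, in cells gated as lacking the protein (log2 difference 1.24 ± 0.27 (SE), adjusted p = 0.0067). The sorts carried rod markers (5 genes, Gnat1 and Sag among them, all 5 detected), whose summed level ran from 30.1 and 47.7 RPM at P0 to 23391 and 29554 RPM at P10.

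**Figure D1:**
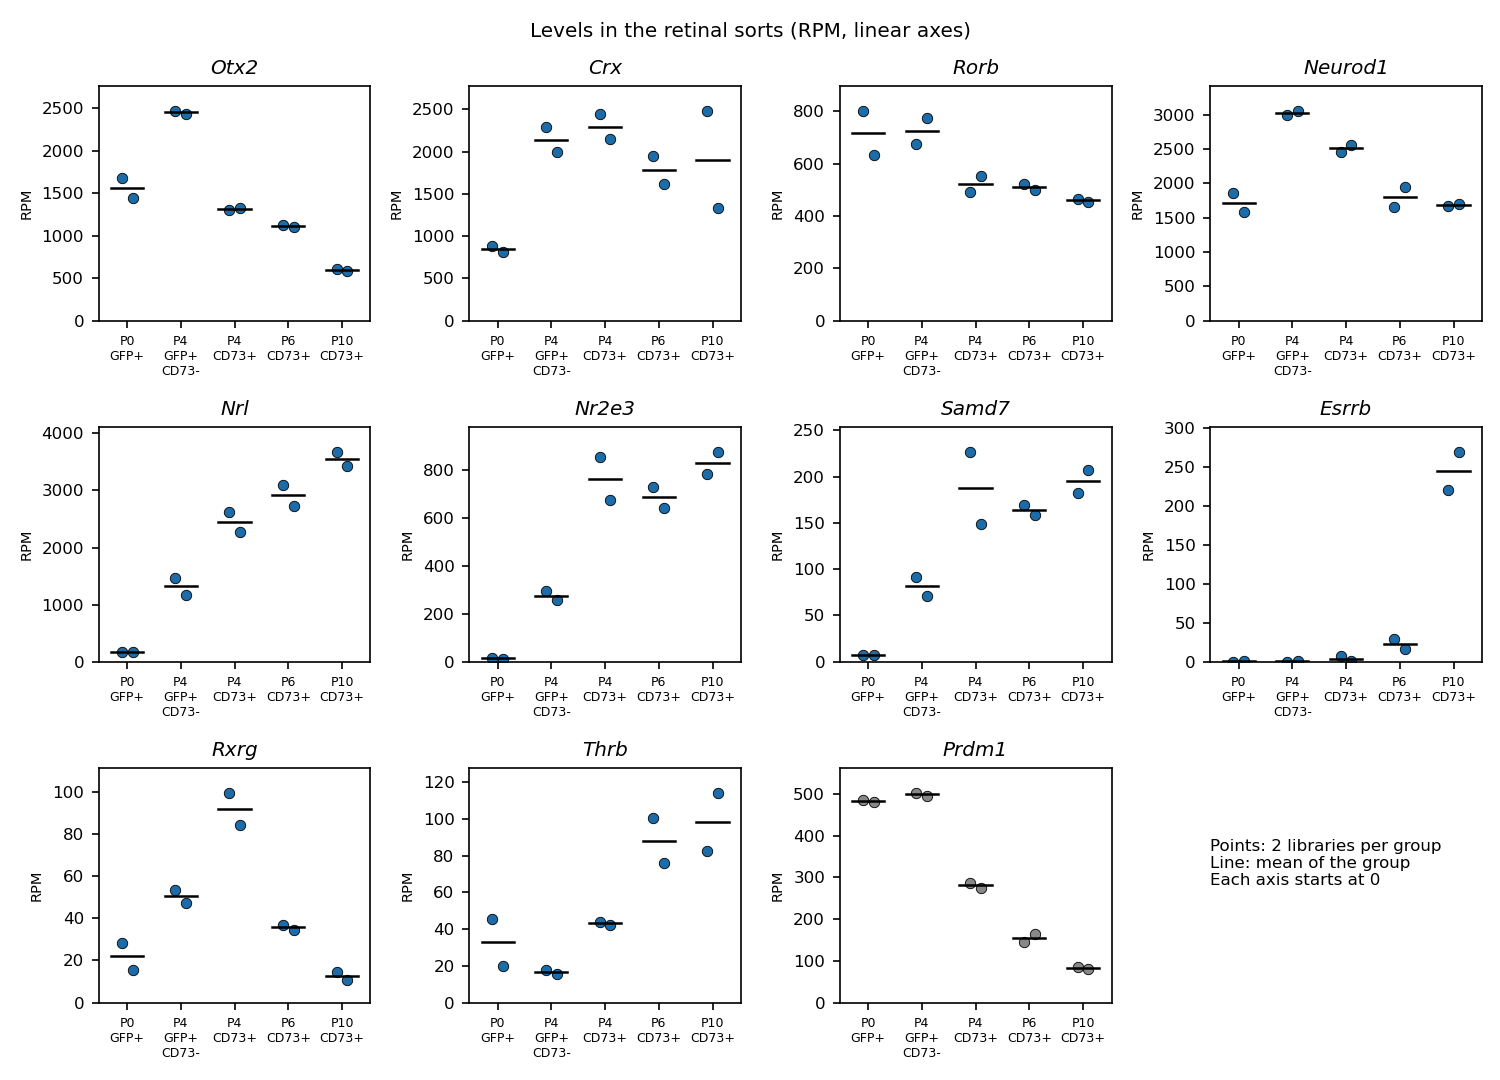
Level of each of the 10 members and of Prdm1 (RPM, linear axes from 0) in the 5 retinal sorts; points are the 2 libraries of a group and lines their mean. Nrl climbs from 174 and 177 RPM at P0 to 3670.0 and 3431 RPM at P10, Otx2 is highest in the P4 CD73- sort, Rxrg in the P4 CD73+ sort, and Esrrb appears at P6 and P10.

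Among the early regulators, Otx2 was highest in reporter-positive cells at P4 and fell by P10, Crx rose between P0 and P4 and stayed up, and Rorb and Neurod1 kept within a 2-fold range. Otx2, the homeobox factor at the head of this network, was at 1677 and 1447 RPM at P0 and 2468 and 2439 RPM in the CD73- sort at P4. It was at 1308 and 1330.5 RPM in the CD73+ sort of the same age, 1127 and 1106 RPM at P6, and 603 and 589.5 RPM at P10. No 2 groups overlapped, and the P10 libraries were the lowest. From P0 to P10 Otx2 fell by 1.38 ± 0.12 on the log2(RPM + 1) scale (limma, Benjamini-Hochberg adjusted p = 1.1e-07), the scale of every change given here. A gene was called at adjusted p under 0.05 with a change of at least 1 log2 unit. None of the 4 single steps in Otx2 reached that size: the differences were 0.65 ± 0.12 (P4 CD73- against P0), -0.89 ± 0.12 (CD73+ against CD73- at P4), -0.24 ± 0.12 (P6 against P4) and -0.90 ± 0.12 (P10 against P6). In these bulk libraries fewer cells that express a gene and less RNA per cell cannot be told apart, here or below.

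Crx, which activates most photoreceptor genes, was at 887 and 818 RPM at P0 and 2293 and 1994 RPM in the P4 CD73- sort. It was then at 2448 and 2144 RPM (P4 CD73+), 1944 and 1618 RPM (P6) and 2479 and 1333 RPM (P10). All 8 later libraries lay above both P0 libraries, the P6 libraries lay below both P4 groups, and the P10 replicates, which differed 1.86-fold, spanned all of these. Crx rose by 1.33 ± 0.21 from P0 to the P4 CD73- sort (adjusted p = 3.8e-04), a call that was lost in a fit of all 26 libraries (adjusted p = 0.063). The rise from P0 to P10, 1.09 ± 0.21 (adjusted p = 3.9e-04), was lost without P10 replicate 1, where it was 0.65, and in the fit of all 26 libraries (adjusted p = 0.066). No step after P4 was called for Crx, with differences of 0.10, -0.37 and 0.04 (SE 0.21 each).

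Rorb, an orphan nuclear receptor that acts above Nrl, was at 799.9 and 633 RPM at P0 and 676 and 773 RPM in the P4 CD73- sort. Later libraries were at 490.5 and 551 (P4 CD73+), 522 and 501 (P6) and 466 and 452 RPM (P10). The 2 reporter-gated groups overlapped each other and lay above every CD73+ library. The differences were 0.02 ± 0.14 (adjusted p = 0.93) at the P0 to P4 CD73- step, -0.47 ± 0.14 (adjusted p = 0.035) between the P4 sorts, and -0.63 ± 0.14 (adjusted p = 9.8e-04) from P0 to P10, all under the size asked of a call. The 3 CD73+ groups differed by -0.02 and -0.16 (SE 0.14) along age.

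Neurod1, a basic helix-loop-helix factor needed for the survival of photoreceptors, was at 1854 and 1581 RPM at P0 and 2994 and 3053 RPM in the P4 CD73- sort, the highest group. The CD73+ libraries were at 2464 and 2555 (P4), 1657 and 1945 (P6) and 1671 and 1706 RPM (P10). The P0, P6 and P10 groups overlapped. The step from P0 to the P4 CD73- sort was 0.82 ± 0.14 (adjusted p = 4.9e-04), just under the size of a call, which it passed under quantile normalization (adjusted p = 5.8e-05). P10 and P0 differed by -0.02 ± 0.14 (adjusted p = 0.91), a sign that turned under both other scalings, median-of-ratios (0.08) and quantile (0.16).

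The 3 members tied to rod identity, Nrl, Nr2e3 and Samd7, rose together between P0 and P4, and Esrrb followed later. Nrl, the factor that commits a precursor to the rod fate, was at 174 and 177 RPM at P0, 1467 and 1176 RPM in the P4 CD73- sort and 2625 and 2278 RPM in the P4 CD73+ sort. It was at 3100.3 and 2729 RPM at P6 and at 3670.0 and 3431 RPM at P10. Groups did not overlap at any step, and the order of the means was the order of the sorts. The rise was 2.90 ± 0.14 at the P0 to P4 CD73- step (adjusted p = 1.5e-09) and 4.33 ± 0.14 from P0 to P10 (adjusted p = 9.8e-13). Between the P4 sorts it was 0.90 ± 0.14 (adjusted p = 5.2e-04), under the size of a call; quantile normalization (1.05) and leaving out P4 CD73- replicate 1 (1.06) took it past. The later steps were 0.25 and 0.29 (SE 0.14) and were not called.

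Nr2e3, the rod nuclear receptor that represses cone genes, was at 17.2 and 12.3 RPM at P0, 297 and 256 RPM in the P4 CD73- sort and 855 and 674 RPM in the P4 CD73+ sort. P6 libraries were at 729 and 644 RPM and P10 libraries at 784 and 875 RPM. The 3 CD73+ groups lay above the CD73- sort, and P6 and P10, which did not overlap each other, both overlapped P4 CD73+. Nr2e3 rose by 4.15 ± 0.16 from P0 to the P4 CD73- sort (adjusted p = 1.7e-10) and by a further 1.46 ± 0.16 in the CD73+ sort (adjusted p = 2.6e-05). After that the steps were -0.15 and 0.27 (SE 0.16), and neither was called.

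Samd7, which joins a Polycomb complex that silences non-rod genes, was at 7.01 and 7.69 RPM at P0 and 91.5 and 71.4 RPM in the P4 CD73- sort. It was at 227 and 149 (P4 CD73+), 169 and 158 (P6) and 183 and 207 RPM (P10), so again every CD73+ library lay above the CD73- sort, and the P6 and P10 values fell inside the range of P4 CD73+. The rise was 3.29 ± 0.19 at the P0 to P4 CD73- step (adjusted p = 1.6e-08) and 1.18 ± 0.19 between the P4 sorts (adjusted p = 7.3e-04). The call between the P4 sorts was lost without P4 CD73- replicate 2 (1.00) and without P4 CD73+ replicate 1 (0.88).

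Esrrb was close to absent in reporter-gated retina: 0.226 and 0.466 RPM at P0, and 0.179 and 0.562 RPM in the P4 CD73- sort, values worth 3 and 4 reads over the 2 libraries of each group. It was at 7.07 and 1.06 RPM in the P4 CD73+ sort, 28.9 and 16.6 RPM at P6 and 219.7 and 269 RPM at P10. From the P4 CD73+ sort on, each group lay above the one before. The ratio of P10 to P0, from the estimated reads, was 699.9-fold with a 95% exact interval of 239 to 3398-fold that covers counting error only. Between the P4 sorts Esrrb differed by 1.59 ± 0.51 (adjusted p = 0.057), a difference that was called with a pseudocount of 0.5 RPM (2.02, adjusted p = 0.04), in the fit of all 26 libraries (adjusted p = 0.025) and without P4 CD73+ replicate 2 (2.57, adjusted p = 0.0017). It rose by 2.49 ± 0.51 from P4 CD73+ to P6 (adjusted p = 0.011) and by 3.41 ± 0.51 from P6 to P10 (adjusted p = 2.1e-04). The P6 call was lost without a filter on low values (adjusted p = 0.13), without P4 CD73+ replicate 2 (1.51, adjusted p = 0.13), without P6 replicate 1 (2.11, adjusted p = 0.15) and without P6 replicate 2 (2.88, adjusted p = 0.05), whereas the P10 call held in every alternative run.

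The cone receptors went different ways. Rxrg, a retinoid X receptor that keeps S opsin low in a part of the cones, was at 28.3 and 15.7 RPM at P0, 53.4 and 47.3 RPM in the P4 CD73- sort and 99.3 and 84.0 RPM in the P4 CD73+ sort. It was then at 37.0 and 34.5 RPM at P6 and 14.6 and 10.8 RPM at P10. The P4 CD73+ libraries were the highest and the P10 libraries the lowest. Rxrg rose by 1.21 ± 0.26 from P0 to the P4 CD73- sort (adjusted p = 0.0031; 0.81 and not called without P0 replicate 2), and fell by 1.33 ± 0.26 from P4 CD73+ to P6 (adjusted p = 0.0076) and by 1.44 ± 0.26 from P6 to P10 (adjusted p = 9.8e-04). The call from P4 CD73+ to P6 was lost without the filter on low values (adjusted p = 0.076) and without P4 CD73+ replicate 1 (adjusted p = 0.062), P6 replicate 1 (adjusted p = 0.064) or P6 replicate 2 (adjusted p = 0.09).

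Thrb, a thyroid hormone receptor whose retinal isoform is needed for M opsin, was at 45.7 and 20.0 RPM at P0 and 17.7 and 15.7 RPM in the P4 CD73- sort, the lowest group. It was at 44.1 and 42.3 (P4 CD73+), 100.3 and 75.8 (P6) and 82.3 and 114 RPM (P10). The P0 replicates differed 2.28-fold and spanned the P4 CD73+ values, and the P6 and P10 groups overlapped. Thrb rose by 1.64 ± 0.29 from P0 to P10 (adjusted p = 1.7e-04) and by 1.32 ± 0.29 in the CD73+ against the CD73- sort at P4 (adjusted p = 0.0068). The latter call was lost without a filter on low values (adjusted p = 0.086), in the fit of all 26 libraries (adjusted p = 0.082) and without P4 CD73- replicate 2 or P4 CD73+ replicate 1 (adjusted p = 0.058 and 0.051). From P0 to the P4 CD73- sort Thrb differed by -0.83 ± 0.29 (adjusted p = 0.055), which became a call without P0 replicate 2 (adjusted p = 0.00091). The values are per gene symbol and do not separate the isoforms.

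Of the 4 steps, the first had the most members called. From P0 to the P4 CD73- sort 5 of 10 members rose (Crx, Nrl, Nr2e3, Rxrg and Samd7) and none fell, where 11.0% of 11704 genes tested were called (5.24% higher, 5.77% lower). The median change was 1.02 over the members and 0.06 over all genes. Between the P4 sorts 3 of 10 rose (Nr2e3, Samd7 and Thrb) against 5.86% of all genes called (3.43% higher, 2.43% lower), and 1 of 10 (Nr2e3) without P4 CD73- replicate 2 or without P4 CD73+ replicate 1. From P4 CD73+ to P6 Esrrb rose and Rxrg fell, against 2.70% called (1.56% higher, 1.14% lower), and the count of 2 went to 0 without the filter, without P6 replicate 1 and without P6 replicate 2. From P6 to P10 the same 2 genes moved in the same directions, against 11.0% called (3.33% higher, 7.62% lower). Over the whole span from P0 to P10 6 rose, Otx2 fell, and Rorb, Neurod1 and Rxrg were not called (Rxrg was called lower without P0 replicate 2, at -1.11, adjusted p = 0.0016), where 35.9% of all genes were called (15.8% higher, 20.1% lower).

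**Figure D2:**
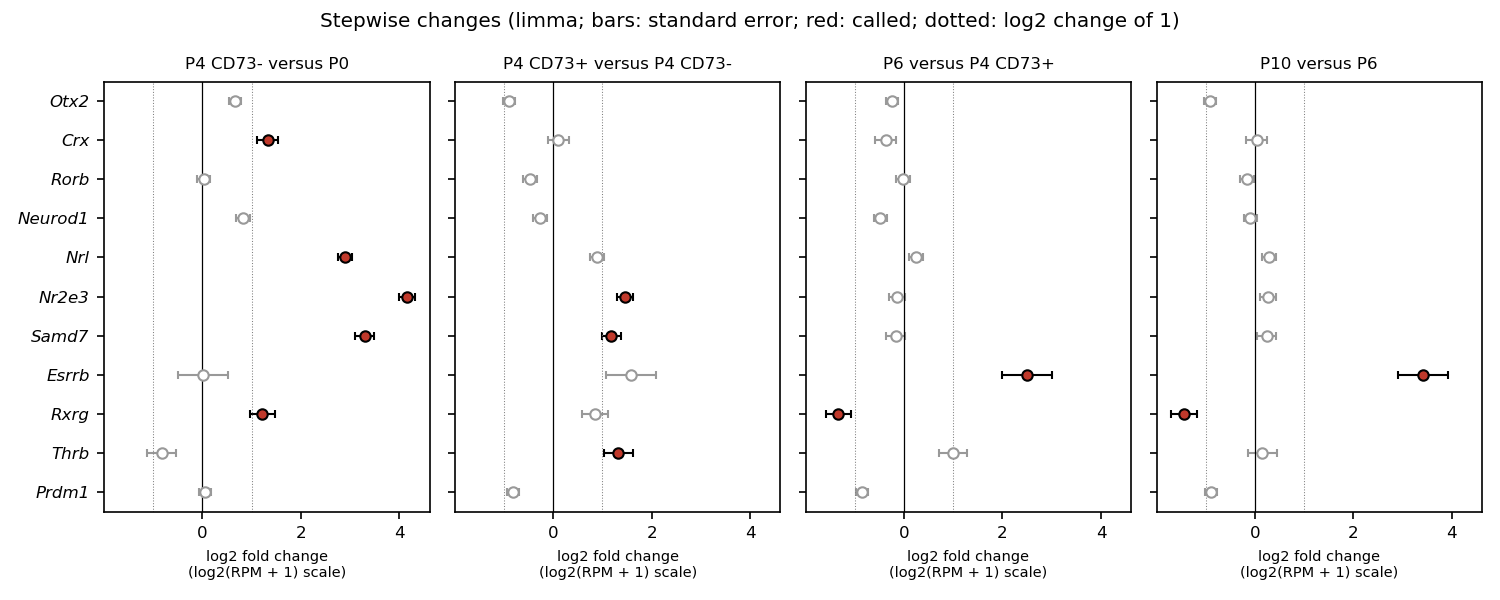
Change of each member and of Prdm1 at the 4 successive steps between retinal sorts (log2 fold change on the log2(RPM + 1) scale, bars are standard errors, filled points were called). Nr2e3 (4.15), Samd7 (3.29) and Nrl (2.90) lead the first step, and Esrrb (2.49 and 3.41) leads the last 2 steps while Rxrg falls.

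Prdm1 itself was at 486 and 481 RPM at P0 and 502 and 495 RPM in the P4 CD73- sort. It was at 288 and 275 RPM (P4 CD73+), 146 and 164 RPM (P6) and 86.0 and 80.4 RPM (P10), so it did not differ detectably at the first step (0.04 ± 0.12, adjusted p = 0.85) and fell by 2.53 ± 0.12 from P0 to P10 (adjusted p = 9.4e-11). Relative to Prdm1 in the same library all 10 of 10 members rose from P0 to P10, but so did most genes, with 89.0% called (86.5% higher, 2.51% lower) and a median over all genes of 2.43. The members' median was 3.89. Those with the smallest gain over Prdm1 were Otx2 (1.14 ± 0.15), Rxrg (1.82 ± 0.25) and Rorb (1.89 ± 0.16), below the median of all genes, and the largest were Esrrb (10.03 ± 0.51) and Nr2e3 (8.26 ± 0.18). The ratio of Otx2 to Prdm1 was 3.45 and 3.01 at P0, 4.92 and 4.92 in the P4 CD73- sort, 4.54 and 4.84 in the P4 CD73+ sort, 7.71 and 6.76 at P6 and 7.02 and 7.33 at P10. Otx2 thus declined by less than Prdm1 did, and between P6 and P10 their ratio stayed within the range of the replicates.

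**Figure D3:**
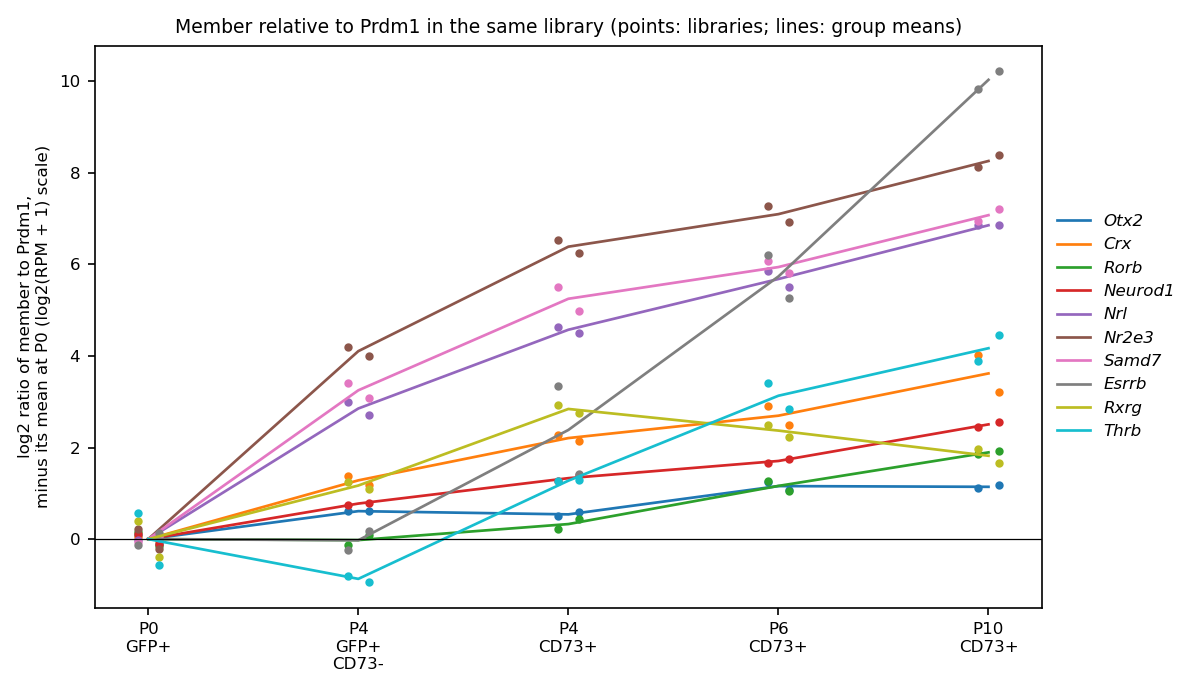
Log2 ratio of each member to Prdm1 in the same library, set to 0 at the P0 mean (log2(RPM + 1) scale; points are libraries, lines group means) over the 5 retinal sorts. Otx2 and Rorb end lowest with Rxrg (1.14, 1.89 and 1.82), and Esrrb ends highest at 10.03.

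Over the 10 retinal libraries the Pearson correlation with Prdm1 on the log2 scale was 0.93 for Otx2, 0.87 for Rorb, 0.55 for Neurod1 and 0.47 for Rxrg. It was -0.27 for Crx, -0.65 for Samd7, -0.66 for Nr2e3, -0.72 for Nrl, -0.89 for Thrb and -0.98 for Esrrb. Among the members Nrl, Nr2e3 and Samd7 were closest to one another, with r of 0.993 (Nrl and Nr2e3), 0.993 (Nrl and Samd7) and 0.997 (Nr2e3 and Samd7). Otx2 and Esrrb were the most opposed (-0.92). The 10 points are 5 groups of 2 libraries that differ in age and gate, and any 2 genes share these libraries and their depth.

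Of 11704 genes, those most like each member over the 10 libraries were Samd7 for Nr2e3 (r = 0.997) and Pitpnm3 for Nrl (r = 0.998), whose group means ran from 23.3 RPM at P0 through 372, 1003 and 1062 to 1398 RPM at P10. Pitpnm3 and Ano2, which encodes a calcium-activated chloride channel, were both among the 3 nearest to Nrl and to Nr2e3. For Otx2 they were Cadm4 (0.985), Fam123a (0.983) and Rnd2 (0.982), the last at 441, 685, 307, 195 and 53.9 RPM. Crx was followed less closely (Hibch, 0.972), as were Rxrg (Smc3, 0.958) and Thrb (Ndufv2, 0.962). Nearest to Esrrb were A930003A15Rik (0.991, from 10.7 to 643 RPM), Cds1 (0.986) and Tnfrsf8 (0.985), and nearest to Prdm1 were Cbx2 (0.992), a Polycomb subunit, Dazap2 (0.990) and Fzd8 (0.990). Rorb and Neurod1, whose group means stayed within a 2-fold range, were not ranked.

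Of 13 tested relatives of the members 3 rose and 2 fell from P0 to P10, with a median change of -0.17 beside -0.10 over all genes. The share called is near that of all genes over this span (35.9%). Samd11, the relative of Samd7, rose by 3.79 ± 0.19 (140 and 104 RPM at P0, 1755 and 1608 RPM at P10), and Rora, a relative of Rorb, rose by 1.45 ± 0.17. Neurod4, the relative of Neurod1, fell by 2.68 ± 0.14, and Nr2e1, the relative of Nr2e3 known from retinal progenitors, fell by 2.48 ± 0.43. Neurod4 was at 2071 and 2181 RPM in the CD73- sort and 466 and 633 RPM in the CD73+ sort at P4, a fall by 1.97 ± 0.14 (adjusted p = 4.1e-07), where Neurod1 differed by -0.27 ± 0.14.

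Other retinal regulators of the precursor state went down over the same span: 22 of 29 tested fell and 3 rose from P0 to P10, with a median of -3.29, where 20.1% of all genes were lower and 15.8% higher. Large falls were seen in Foxn4 (322 and 358 RPM at P0, 0.519 and 0.336 RPM at P10) and Olig2 (219.7 and 251 RPM, then 0.260 and 0 RPM), and Neurog2 fell by 7.44 ± 0.29, all 3 being factors of dividing and newly postmitotic precursors. Those that rose were Pias3, Casz1 and Mef2d. Pias3, a SUMO ligase known to work with CRX and NR2E3, was at 83.7 and 66.6 RPM at P0, 296 and 273 RPM in the P4 CD73- sort, 637 and 541 RPM in the P4 CD73+ sort and 559 and 532 RPM at P10. At P4 it rose by 1.04 ± 0.14 in the CD73+ against the CD73- sort, and it was the only gene of that list to rise there, while 6 fell.

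Rod genes known to lie downstream of CRX and NRL rose as well: 22 of 24 rose at the P0 to P4 CD73- step, 21 of 24 between the P4 sorts, 5 from P4 CD73+ to P6 and 20 from P6 to P10, and none fell at any step. Of all genes 5.24%, 3.43%, 1.56% and 3.33% were higher at these steps. The median changes of the rod genes were 2.53, 2.25, 0.74 and 1.41, beside 0.06, -0.01, 0 and -0.13 over all genes. From P6 to P10 Gnat1, the rod transducin subunit, went from 81.2 and 63.9 RPM to 1689 and 2972 RPM, a rise of 4.94 ± 0.26, where Crx, Nrl and Nr2e3 differed by 0.04 to 0.29 and were not called and Esrrb rose. Of 11 tested cone genes 7 rose and 1 (Gngt2) fell from P0 to P10, against 15.8% and 20.1% of all genes. Arr3, cone arrestin, and Pde6h, a cone phosphodiesterase subunit, were among those that rose, by 5.14 ± 0.38 and 2.96 ± 0.15, over the span in which Rxrg ended at its lowest and Thrb at its highest.

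Markers of bipolar cells, which share OTX2 and NEUROD1-family factors with photoreceptors, changed in the CD73+ sorts between P4 and P6. Of 10 markers 9 rose at that step, where 2.70% of all genes were called and 1.56% were higher, and their summed level went from 367 and 318 RPM to 1329 and 1386 RPM, then 1846 and 1548 RPM at P10. Trpm1, a channel of ON bipolar cells, was listed at 0 in all 4 P4 libraries and at 21.2 and 27.1 RPM at P6. Otx2, Crx, Rorb and Neurod1 were not called at this step, while Esrrb was called higher and Rxrg lower. The part of the bipolar signal in those 2 calls was not tested. The 14 progenitor and Müller glia markers were at a summed 2268 and 2259 RPM at P0 and 923 and 793 RPM at P10, the same direction as Otx2. Myeloid markers (8 genes) were at 82.8 and 202 RPM in the P4 CD73- sort and 18.1 and 15.5 RPM in the CD73+ sort. Endothelial and pericyte markers (6 genes) were at 21.5 to 170 RPM over the retinal libraries. Most of that was Kdr (61.1 and 162 RPM in the P4 CD73- sort), while Cdh5 was listed at 0 from P4 on. Amacrine, horizontal and ganglion cell markers (15 genes) were at 183 to 377 RPM over the same libraries. Isl1, also on the bipolar list, gave 149 and 156 RPM of that sum at P6 and 232 and 210 RPM at P10. Slc6a9 gave 142 and 141 RPM of it in the P4 CD73- sort, 196 and 164 RPM in the P4 CD73+ sort and 171 and 141 RPM at P6. Of 8 tested amacrine, horizontal and ganglion cell markers 3 rose and 5 fell from P0 to P10. Over that span 15.8% of all genes were higher and 20.1% lower. The part of these cell types in the members' levels was not tested.

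**Figure D4:**
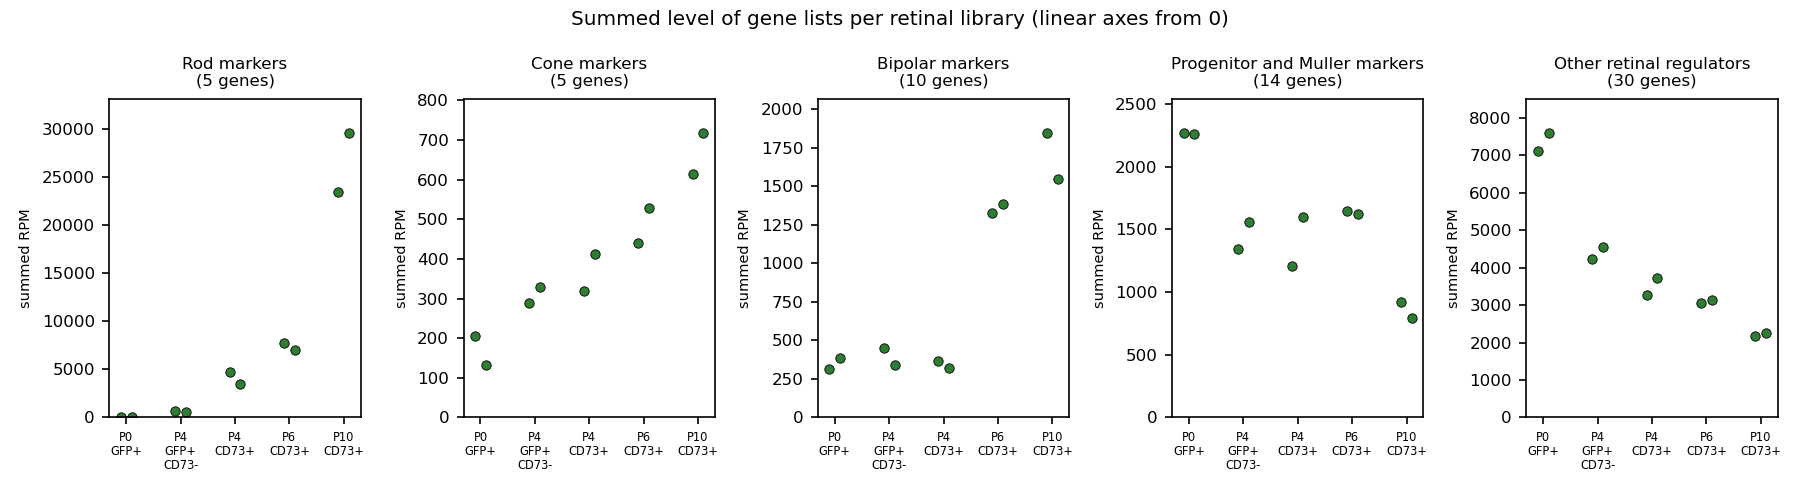
Summed level (RPM, linear axes from 0) of marker and regulator lists in each retinal library, by sort. Rod markers reach 23391 and 29554 RPM at P10, bipolar markers step up from 367 and 318 RPM to 1329 and 1386 RPM between P4 CD73+ and P6, and the other retinal regulators decline.

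Outside the retina most members were near 0. Against the mean of the 3 intestinal groups 9 of 10 members were higher in retina, where 56.8% of 14131 genes were called (37.4% higher, 19.4% lower), and Thrb was not (0.87 ± 0.23, adjusted p = 0.0015; 1.01 and called without E16.5 intestine replicate 2). Against the B lineage all 10 were higher, where 58.8% were called (45.2% higher, 13.6% lower). Samd7 stayed at or under 0.385 RPM and Rorb at or under 1.92 RPM in the 16 libraries outside the retina, with Crx at or under 6.02 RPM, Nrl at or under 8.85 RPM and Otx2 at or under 10.8 RPM. Nr2e3, Neurod1 and Thrb were the members with a group mean over 20 RPM in intestine.

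Nr2e3 was at 15.4 and 15.4 RPM in intestine at E16.5, 44.4 and 35.7 RPM at P3 and 33.3 and 22.0 RPM at P14, where P0 retina had 17.2 and 12.3 RPM. Every P3 and P14 intestinal library thus lay above both P0 retinal libraries, and all lay below the P4 CD73- sort. Neurod1, a factor of enteroendocrine cells in gut, was at 8.85 and 3.40 RPM at E16.5, 35.9 and 37.0 RPM at P3 and 19.2 and 26.2 RPM at P14. Thrb was at 13.9 and 26.3 RPM, 29.1 and 36.7 RPM and 25.3 and 20.9 RPM at the same ages. All but 1 of these 6 values (E16.5 replicate 1) lay inside the range of the P0 and P4 retinal libraries, 15.7 to 45.7 RPM. These differences among intestinal ages were not tested.

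Of the members, only Esrrb exceeded 10 RPM in the germ cell precursors. It was at 46.6 and 63.8 RPM in d2 PGCLC, against 219.7 and 269 RPM in P10 retina and 28.9 and 16.6 RPM in P6 retina, and at or under 0.618 RPM in the other 14 libraries outside the retina. PGCLC therefore lay between the P6 and P10 sorts with no overlap, and below P10 by -2.14 ± 0.43 (adjusted p = 1.4e-04). All 10 members were lower in PGCLC than at P10, where 54.1% of genes were called (22.3% higher, 31.8% lower). Crx, Nrl, Nr2e3 and Thrb were listed at 0 in both PGCLC libraries. Rxrg was at 3.50 and 7.04 RPM there against 14.6 and 10.8 RPM at P10 (-1.17 ± 0.33, adjusted p = 0.0036), a call that was lost with a pseudocount of 5 RPM (-0.80), under quantile normalization (-0.79), without PGCLC replicate 1 (-0.75) and without P10 replicate 1 (-0.97). The 11 pluripotency and germ cell genes set beside Esrrb were all higher in PGCLC than at P10 (22.3% of all genes were), where Prdm14 was listed at 0, with a median of 4.43 and a summed level of 941 and 986 RPM against 15.7 and 21.5 RPM.

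**Figure D5:**
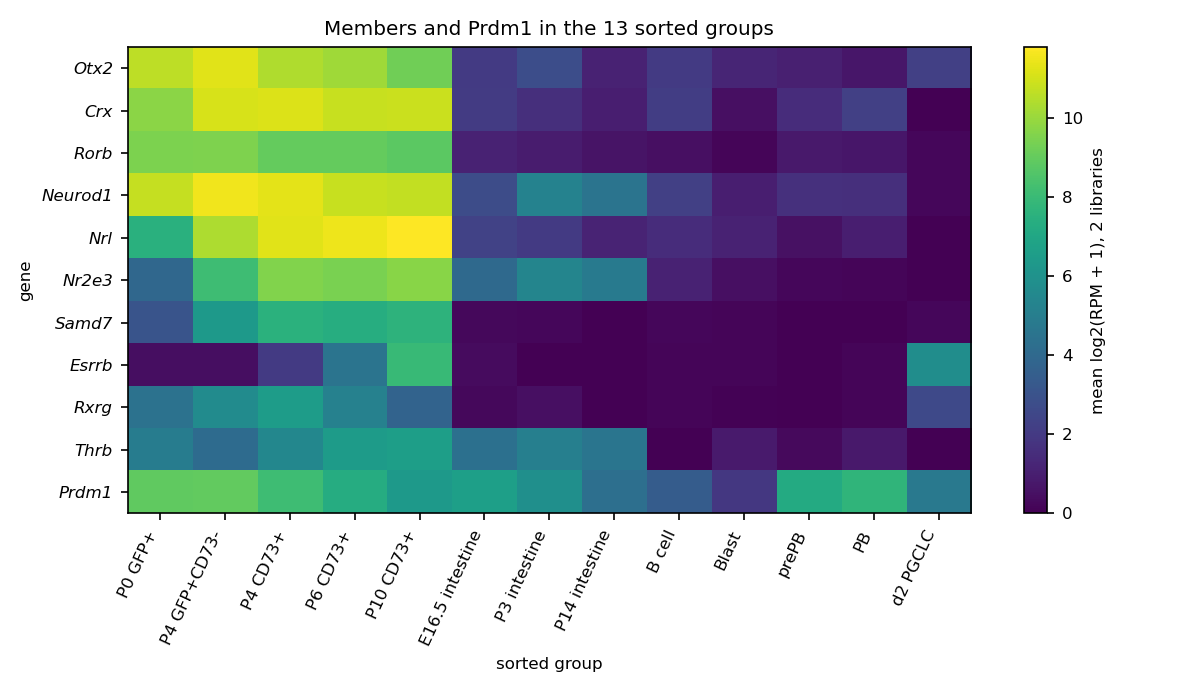
Mean log2(RPM + 1) of the 2 libraries for each member and Prdm1 (rows) in the 13 sorted groups (columns). Otx2, Crx, Nrl, Rorb, Neurod1, Rxrg and Samd7 are higher in each of the 5 retinal columns than in any other column. Esrrb is close to absent at P0 and in the P4 CD73- sort. Nr2e3 at P0 lies below P3 and P14 intestine, and Thrb in the P4 CD73- sort lies below every intestinal column. Nr2e3, Neurod1 and Thrb also show in intestine, and Esrrb is the only member over 10 RPM in d2 PGCLC, at 46.6 and 63.8 RPM.

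Some members share exon bases with other annotated genes, and whether the authors' counting used strand is not stated in the labels or headers. Otx2 (chromosome 14, 48656781 to 48667644, minus strand) shares 154 exon bases with the opposite-strand Otx2os1, which was at 4.30 and 5.36 RPM at P0 and 60.0 and 53.8 RPM at P10, the direction opposite to Otx2. Otx2 also shares 168 bases with Gm49154 on its own strand. Neurod1 (chromosome 2, 79452637 to 79456636, minus strand) shares 201 bases with Cerkl on its own strand, which stayed at or under 9.61 RPM in retina. Neurod1 also shares 154 bases with the opposite-strand Gm26755. Nr2e3 (chromosome 9, 59942771 to 59960834, minus strand) shares 61 bases with the same-strand Gm15507. Reads in the shared bases may have been split between the partners.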

How the data were processed

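Expression was measured in 26 libraries, 2 for each of 13 sorted groups, and groups were taken from the sample labels. The deposited table gives, per the file headers and name, a depth-scaled read signal for each gene (RPM) made by the authors; the submitters' processing notes list the build mm10 and the tools Cufflinks 2.2.0, TopHat 1.4.1, cutadapt 1.11 and Bowtie 1.0.1, with the counting rule and strand not given in the sources used here. Of 26310 lines 1164 without 26 complete numeric values were left out, none of them a member. Depth (1.72 to 6.04 M reads, retina 2.58 to 5.60 M) was estimated by taking the most frequent value above 0 as 1 read. Only 82.9% to 91.3% of low values were then whole reads, so no count test was used for the calls. The exact interval of the Esrrb ratio is the exception, as it treats rounded estimated reads as counts.

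Tests were limma 3.58.1 (R 4.3.3) with a trend on log2(RPM + 1), two-sided, over genes that reached 5 RPM in 2 or more libraries, adjusted by Benjamini-Hochberg over all genes tested: 11704 in the fit of the 10 retinal libraries and 14131 in that of all 26. A gene was called at adjusted p under 0.05 and a change of at least 1. Fold changes on this scale understate those of low genes. Changes relative to Prdm1 subtracted its log2 value in the same library. The fit was tested on simulated data for the step from P4 CD73+ to P6: of genes changed 2-fold 49.3% were called, and of those changed 3-fold 98.5% (11284 genes). The simulation assumed 1 spread between replicates for all genes and changed only genes above a floor of mean level. These shares hold for that setting alone. In the measured data the SE of the members at this step ran from 0.12 (Otx2) to 0.51 (Esrrb). The members were chosen by name, whereas the lists and the marker sets were chosen with earlier results of these data known. Named are all members and Prdm1, the 3 genes most correlated with each member whose group means span at least 2-fold, and from each list the called genes (longer lists: the 4 largest from P0 to P10 and the largest 2 in each direction of a comparison); the others named (Samd11, Pias3, Trpm1, Prdm14 and the like) either fall under that rule or were chosen after their values were seen. Some genes of the lists are counted but not reported here by name. Promoter windows (all 10 members matched) and gene positions are from RefSeq on GRCm38.p6, and gene strands and exon overlaps from GENCODE. Alternatives were pseudocounts of 0.5 and 5 RPM, no filter, median-of-ratios scaling, quantile normalization, a replicate block, other sets of libraries, and each library left out in turn.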

Additional observations from a re-analysis of the deposited data

How the results depend on the processing

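Of 123 recomputed counts of called members 116 stayed within 1.5 times the reported count. The exceptions were 2 steps. Between the P4 sorts the count of 3 ranged from 1 to 4 when 1 library was left out. From P4 CD73+ to P6 the count of 2 became 0 with no filter on low values and ranged from 0 to 1 when 1 library was left out. Of 1230 recomputed changes of single members 1178 kept their direction and call, 22 lost a call, 9 gained one and 21 changed sign, all of the latter in changes that were not called. Median-of-ratios scaling turned Rorb at the P0 to P4 CD73- step (-0.029), Neurod1 from P6 to P10 (0.054) and Neurod1 from P0 to P10 (0.081). Quantile normalization turned Crx (-0.12) and Nrl (-0.19) from P6 to P10 and Neurod1 from P0 to P10 (0.16). Leaving out 1 library gave ranges across 0 at the P0 to P4 CD73- step for Esrrb (-0.19 to 0.22) and Rorb (-0.15 to 0.19), and between the P4 sorts for Crx (-0.0011 to 0.20). From P4 CD73+ to P6 it did so for Samd7 (-0.47 to 0.13), Nr2e3 (-0.32 to 0.024) and Rorb (-0.11 to 0.059), from P6 to P10 for Neurod1 (-0.20 to 0.027), Crx (-0.41 to 0.48) and Thrb (-0.082 to 0.38), and from P0 to P10 for Neurod1 (-0.13 to 0.094). A group reduced to 1 library was assumed to vary like the others. The causes were not tested.

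Over all genes, calls from P4 CD73+ to P6 went from 316 to 111 without the filter and to 115, 139 or 143 without P6 replicate 2, P6 replicate 1 or P4 CD73+ replicate 2. At the P0 to P4 CD73- step they went from 1288 to 809 without P4 CD73- replicate 1, between the P4 sorts from 686 to 443 without P4 CD73+ replicate 1, and from P6 to P10 from 1282 to 817 with a pseudocount of 5 RPM and to 776 without P10 replicate 2. Relative to Prdm1, 10416 calls became 18172 with no filter, which tests more genes. Higher genes were 30.4% of calls from P6 to P10 and 41.5% or 41.4% under median-of-ratios or quantile scaling, which moved the median of all genes by 0.13 and 0.10. The same share was 65.9% in retina against intestine (51.5% and 52.7%), 76.9% against B lineage (59.6% and 52.9%) and 41.3% in PGCLC against P10 (45.6% and 51.3%), with medians moved by up to 0.81 in size across lineages (-0.81 against B lineage).

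Over 10 pairs of retinal groups the correlation of same-numbered deviations was -0.03 to 0.28. The 1 pair over 0.1 was that of the 2 P4 sorts (0.28), and whether these were paired was not tested. With the replicate number as a block the counts of called members were 5, 3, 2, 2 and 7 in the retinal comparisons in the order given, 9 and 10 against intestine and B lineage, 10 in PGCLC against P10 and 10 relative to Prdm1, the same as without the block. The block was 1 term shared by all groups, so it cannot show the effect of a pairing of the P4 sorts alone. At P0 and in the P4 CD73- sort, 1 read was worth 0.179 to 0.233 RPM. Esrrb had 3 and 4 reads in these 2 groups, so a difference between them was not detectable.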
